A study of Mus musculus with 6 samples.

Results

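Isolated CpG-poor low-methylated windows are 1 kb stretches of the mouse autosomes that hold few CpGs, are low in methylation and lie between methylated neighbours. A window was a member if it held 3 to 10 CpGs and at least 20 reads in every sample, had a mean of the 6 sample levels from 10% to below 50%, and had a level of 70% or more in both adjacent 1 kb windows with the reads of all 6 samples pooled. The rule gave 2594 windows, or 0.335% of the 774732 autosomal windows that met the minima of 3 CpGs and, in each sample, 20 reads. They were 0.943% of the 275053 such windows with 3 to 10 CpGs. Among windows of that CpG number and level, 5349 in all, 48.5% had both neighbours at 70% or more.

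In mammalian cells most CpGs outside promoters are methylated, and short CpG-poor stretches of reduced methylation are often found where transcription factors bind, at enhancers far from promoters. Tet enzymes oxidise 5-methylcytosine to 5-hydroxymethylcytosine and further products, a route by which methylation can be removed. Bisulfite sequencing reads 5-methylcytosine and 5-hydroxymethylcytosine alike, so a level here is the sum of both. The data hold no chromatin mark or factor binding, so whether any of these windows is an enhancer was not tested.

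The windows were read in LSK cells, bone marrow cells sorted for c-Kit and Sca-1 after removal of lineage-positive cells, a fraction that contains blood stem and early progenitor cells. Wild-type cells (WT, 3 samples) were set beside cells from Tet2/3 DKO mice (DKO, 3 samples), which lack Tet2 and Tet3. A scan for stretches that lost their reads in DKO found 2 runs of adjacent windows. The run on chromosome 3, which holds Tet2, had 109, 165 and 136 WT reads and 0 reads in each DKO sample. The run on chromosome 6, which holds Tet3, had 208, 231 and 169 WT reads and 14, 0 and 0 DKO reads. Age, sex, strain, alleles and any pooling of animals were not stated in the labels. The median member had 35, 36 and 35 reads in WT replicates 1, 2 and 3 and 49, 54 and 41 in the DKO replicates. A read was counted at each CpG it covered, so these reads are not independent, and WT levels carried more counting error.

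In most members the low CpGs took up a part of the 1 kb frame. The median member held 9 CpGs, and 722 members held 10 CpGs while 4 held 3. With the 6 samples pooled and CpGs of at least 20 reads used, the median member had 5 CpGs under 50% of 7 read. Where there were at least 2 such CpGs, in 2571 members, the stretch from the first to the last had a median of 291 bp, with quartiles of 182 and 438 bp. This span counts only CpGs inside the frame. Along the window the CpGs passed between under 50% and higher levels once in 1235 members (47.6%), so the low CpGs there reached an end of those read. They did so more than 2 times in 534 (20.6%), and in 165 (6.37%) all CpGs read were low. In 73.5% of the members (1907), a CpG at 20% or less stood beside another at 80% or more. Levels chose the windows, so this is a description with no test.

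Most members lay far from CpG-dense unmethylated sequence, the state typical of CpG-island promoters. There were 19986 autosomal windows with at least 20 CpGs and a pooled level under 10%. The median distance from a member to the nearest of these was 53 kb. It was 38 kb for isolated windows of the same level with 11 or more CpGs and 73 kb for CpG-poor windows at 70% or more. It was 13 kb for CpG-poor windows of the same level with a neighbour under 70%, a set whose definition admits such windows as neighbours. Within 5 kb of such a window lay 195 members (7.52%), and 1325 (51.1%) were over 50 kb away. Another member lay within 10 kb of 129 members (4.97%), while a member lay within 10 kb of 2.58% of the methylated CpG-poor windows. This share was 4.99% for the CpG-poor windows of the same level with a neighbour under 70%. For the isolated windows with 11 or more CpGs it was 3.68%. Genes, exons and promoters are not named and no sequence is shown, since a genome and annotation of mm9 were not used here.

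Methylation in the members was higher in DKO than in WT cells. The mean level over the 2594 windows was 32.2%, 32.2% and 32.0% in WT replicates 1, 2 and 3. It was 41.3%, 42.3% and 40.6% in DKO replicates 1, 2 and 3. The groups did not overlap, and the lowest DKO sample stood 8.44 points above the highest WT sample. The means were 32.1% ± 0.0750 and 41.4% ± 0.870 (SD, n = 3 each), a difference of 9.28 points. No p-value is given for this mean, since the windows were chosen with earlier results known, and 3 samples against 3 cannot go below an exact permutation p of 0.1. The methylated share on the mitochondrial genome, which is taken as unmethylated, was 1.28% ± 0.0797 for WT and 1.71% ± 0.170 for DKO (SD, n = 3). With each sample corrected by its own value the difference in the members was 9.14 points.

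Methylation was higher in DKO across the genome, and in points the neighbours differed less than the members. The rule took neighbours at 70% or more and members with a mean below 50%, so the neighbours had less room to rise. The part of that in their smaller difference was not tested. All 774732 tested windows averaged 83.5% (WT) and 85.2% (DKO), which is 1.63 points higher, and the samples of the groups did not overlap. Both adjacent windows together had 86.6%, 86.7% and 86.7% in WT and 89.4%, 89.7% and 90.2% in DKO, a difference of 3.08 points, near the 3.15 points at the neighbours of isolated windows with 11 or more CpGs. The dip, the level of the neighbours minus that of the member, was 54.4, 54.5 and 54.6 points in WT and 48.1, 47.3 and 49.6 points in DKO. The DKO dip was thus shallower by 11.4% of the WT dip. In single windows the dip was shallower in DKO in 1751 members (67.5%). It was at least 50% shallower in 79 (3.05%), and the reverse held in 11 (0.424%).

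**Figure D1:**
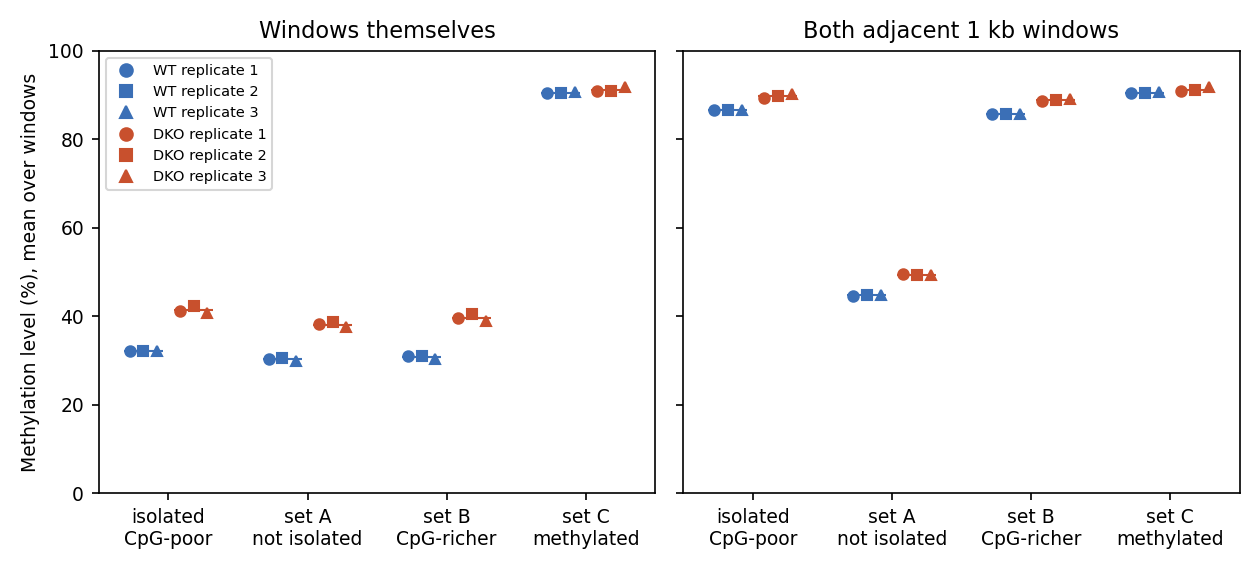
Mean methylation level in percent over the windows of each set (left) and over both windows adjacent to them (right), with 1 point per sample (blue WT, red DKO) and a line at each group mean. Set A windows are CpG-poor and low with a neighbour under 70%, set B windows have 11 or more CpGs, and set C windows are CpG-poor at 70% or more; the DKO points of the isolated CpG-poor windows sit at 40.6% to 42.3%, above the WT points at 32.0% to 32.2%.

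The rule read all 6 samples, so the windows were also chosen on some samples and measured in the others. Chosen on replicate number 1 of both groups, 2761 windows had 37.0% and 37.0% in WT replicates 2 and 3 and 46.5% and 45.3% in DKO replicates 2 and 3. The difference was 8.91 points with this choice, 8.73 points with number 2 and 9.88 points with number 3, and the 4 measured samples did not overlap between groups in any of them. These values lay within 1 SD of the DKO samples (0.870 points) of the 9.28 points above.

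A mean capped at 50% over all samples also limits how far a member can rise in DKO. Chosen on a single WT sample, which was tried only after the data had been seen, the windows had no such limit. The 3408 windows chosen on WT replicate 1 had 45.2% and 45.0% in the other WT samples and 55.2%, 55.8% and 54.9% in DKO, a difference of 10.2 points. The dip was then 18.4% shallower in DKO. Chosen on WT replicates 2 and 3 it was 17.4% and 18.8% shallower. The 11.4% above is a value for the windows chosen on all 6 samples. The WT dip was 54.5 points there and 42.6 points with the choice on WT replicate 1, so these shares have unlike bases. The part of the cap in their difference was not tested.

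The counts of members at 70% or more were limited by the rule, since a mean below 50% over all samples allows such a DKO level only beside a WT level that is low. In WT, 30, 12 and 14 members (1.16%, 0.463% and 0.540%) were at 70% or more in replicates 1, 2 and 3. In DKO the counts were 85, 95 and 57 (3.28%, 3.66% and 2.20%). Every DKO share lay above every WT share. With each member thinned to 20 reads in every sample to give all samples the same depth, the shares were 1.97%, 1.66% and 1.46% in WT and 7.21%, 7.71% and 5.01% in DKO. At the other end, 7.94%, 7.21% and 8.13% of members were at 10% or less in WT and 2.12%, 1.62% and 2.58% in DKO.

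By group means, 666 members (25.7%) were at 50% or more in DKO and 109 (4.20%) in WT, and 5 reached 70% in DKO. The DKO mean came within 20 points of its own neighbours in 15 members (0.578%), and the WT mean did so in 4 (0.154%). For windows chosen on WT replicate 1 alone, 12.1% and 12.6% were at 70% or more in the other WT samples and 25.9%, 26.4% and 24.9% in DKO.

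The profile around the members showed a dip, with edges set by the rule, on a raised DKO background. With reads pooled over members, the difference between groups was 9.08 points in the member and 3.20 points in the adjacent windows, where WT had 86.1% ± 0.0492 and DKO 89.3% ± 0.284 (SD, n = 3). At 2 to 5 kb WT had 77.8% ± 0.446 and DKO 80.02% ± 0.734 (SD, n = 3), a difference of 2.24 points. At each 1 kb step to 5 kb on either side all DKO samples lay above all WT samples. Levels outside the member were higher and had less room to rise. The part of that in the smaller differences there was not tested. The pooled level was lower farther out, where windows held more CpGs on average (9.17 in the left adjacent window and 10.5 at 5 kb on the left). Windows of at most 10 CpGs held 86.8% in WT and 88.6% in DKO at 5 kb on the left, and 87.0% and 89.1% on the right.

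In 200 bp steps the WT level was lowest at the centre, from -100 to 100 bp, where it was 26.3% and 25.9% in WT replicates 1 and 2, and the groups differed by 9.45 points. The difference stayed between 8.46 and 9.62 points over the whole kilobase. From 500 to 700 bp, just outside the member, it was 4.90 points on the left and 5.78 points on the right. From 700 to 900 bp it was 3.03 and 3.45 points. DKO was lowest in the same central step as WT. The edges of this averaged dip are set by the frame of the windows. Here too, levels just outside the member had less room to rise, and the part of that was not tested.

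**Figure D2:**
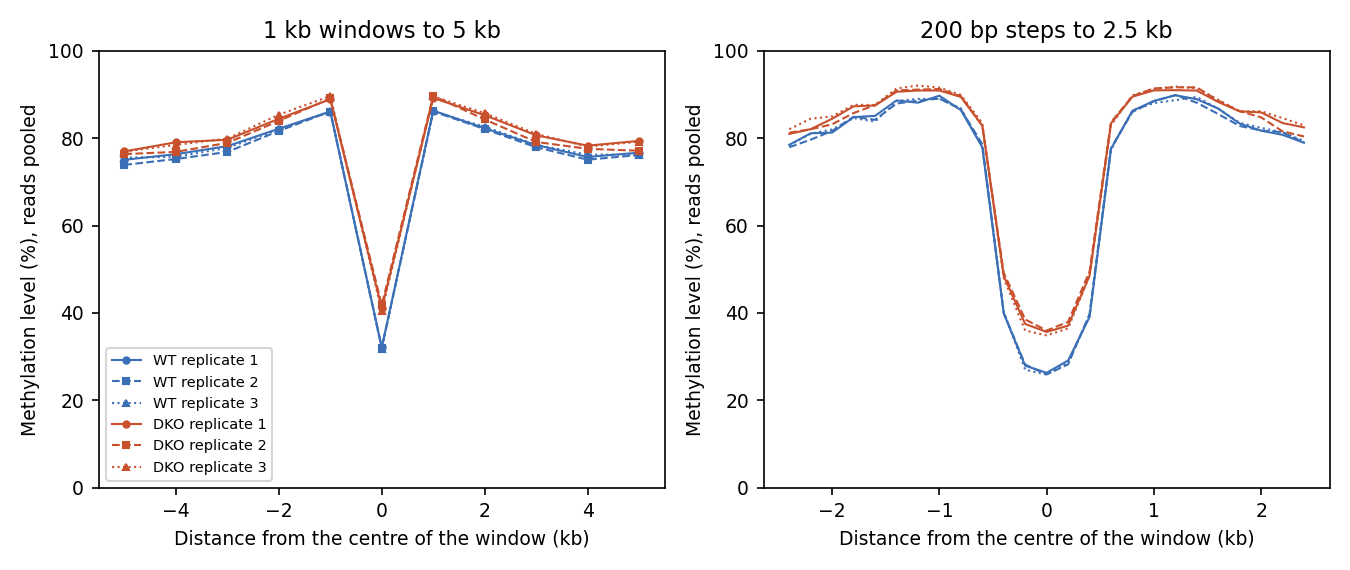
Methylation level in percent, with reads pooled over the 2594 members, against the distance in kb from the centre of the member, in 1 kb windows (left) and 200 bp steps (right). Each line is 1 sample (blue WT, red DKO), and the red lines run 9.08 points above the blue on average in the central window and 3.20 points above in the adjacent ones.

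Single members varied widely around the mean gain. The median difference was 8.51 points, with 5% of members below -10.1 points and 5% above 31.2 points. The DKO mean was higher in 2000 members (77.1%), against 58.2% of all tested windows. Gains of at least 20 points were seen in 509 members (19.6%), against 1.77% of all tested windows. In sets A and B the shares were 14.9% and 15.3%. Losses of at least 20 points were seen in 18 members (0.694%), against 0.0972% of all tested windows. In sets A and B these shares were 0.624% and 0.58%. Gains of at least 30 points were seen in 152 members (5.86%) and losses of that size in 0. Over all tested windows the counts were 2991 (0.386%) and 42 (0.00542%). All 3 DKO samples lay above all 3 WT samples in 650 members (25.1%), against 9.05% of all tested windows. The reverse held in 51 members (1.97%), against 3.75%. In set A the DKO samples were all above in 21.4% and all below in 1.94%, and in set B in 25% and 1.47%.

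The test across all windows called few single members. Of the 2594 members, 57 were higher in DKO (2.20%) by the moderated quasi-binomial F test (called at 10 points or more with an adjusted p under 0.05), against 0.49% of all tested windows. By the same test 0 were lower, against 0.00723% of all windows, and 32 were lower at an unadjusted p under 0.05, against 1.95% of all windows. Limma on log2 ratios called 0 of all tested windows and so 0 members. Unadjusted, limma had 382 members higher (14.7%, against 6.27% of all windows) and 12 lower (0.463%, against 1.61%). Fisher's exact test of the pooled reads, which ignores the spread between samples, called 663 members higher (25.6%, against 5.56% of all windows) and 31 lower (1.2%, against 0.908%). An unadjusted p under 0.05 with a higher DKO level was reached by 634 members (24.4%), against 7.32% of all windows. The 57 calls became 7, 5 and 3 when WT replicate 1, 2 or 3 was left out, and 4, 0 and 6 when DKO replicate 1, 2 or 3 was. Over all windows the share called higher fell as well, to 0.0751%, 0.0824% and 0.0658% and to 0.0524%, 0.00374% and 0.101%. Without windows of more than 3 times the median depth 139 members were called (5.37%), and the share of all windows rose to 1.14%.

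The called members went from very low to intermediate levels. Their median level was 20.3% (WT) against 60.9% (DKO). The gains ran from 28.9 to 56.0 points, and the median gain was 38.4 points. In all 57 the samples of the groups did not overlap, and they were spread over 18 chromosomes. The calls were made on these same levels, so the separation and the size of the gains add no support to them. The gains of the called members were not measured in other samples. With every CpG given the same weight in both groups, their median difference was 33.9 points and the smallest 1.06 points. The values of single windows thus depended on how reads fell on their CpGs. Over all members the mean with equal weights was 9.09 points.

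**Figure D3:**
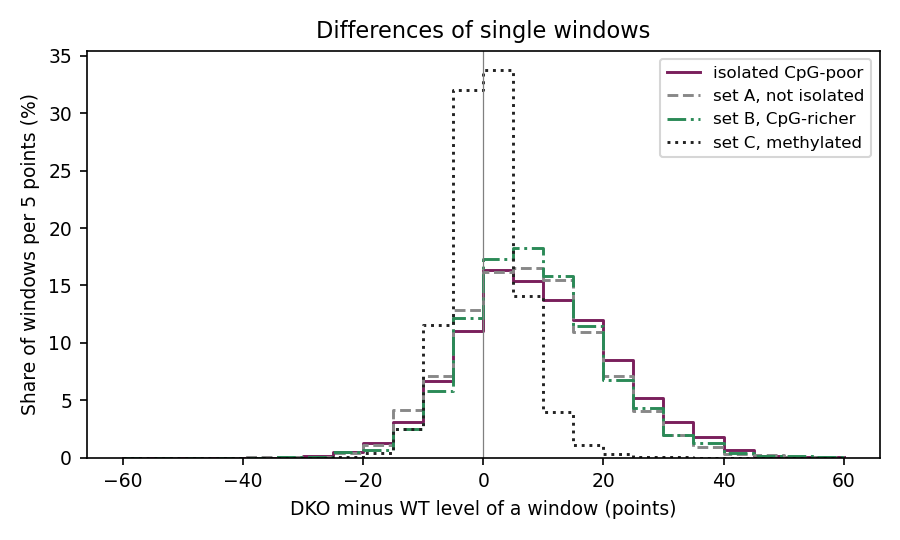
Share of windows in percent per 5-point step of the DKO minus WT difference in points, for the isolated CpG-poor windows and the 3 comparison sets. The isolated windows centre on a median of 8.51 points with a tail of gains beyond 30 points, while the methylated CpG-poor windows of set C centre on 0.407 points.

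Within the members the difference was largest at CpGs of intermediate level. CpGs were classed by their level in the 4 samples of 2 replicate numbers, with at least 12 reads, and measured in the WT and DKO samples of the remaining number. CpGs at 20% or less had 5.49%, 5.67% and 4.87% in WT replicates 1, 2 and 3 and 12%, 13.7% and 10.8% in the DKO replicates. CpGs over 20% and under 80% had 36.3%, 37.8% and 35.2% in WT and 50.4%, 51.9% and 48.4% in DKO. CpGs at 80% or more had 83.7%, 84.0% and 84.3% in WT and 88.0%, 89.6% and 89.0% in DKO. In each class all 3 DKO values lay above all 3 WT values. The mean differences were 6.83, 13.9 and 4.84 points, and those of the middle class (13.3 to 14.2 points) lay above all those of the other classes. The classes read DKO as well as WT levels, so a CpG low in WT that gained in DKO could fall in the middle class. CpGs at 80% or more also had little room to rise. The part of both in the order of the classes was not tested.

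At 10 reads per CpG and group, 58.5% of 14884 CpGs of the members were at 20% or less in WT and 44.7% in DKO. The share from 30% to 70% was 23.7% in WT and 32.1% in DKO, and the share at 80% or more was 17.8% and 23.2%.

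**Figure D4:**
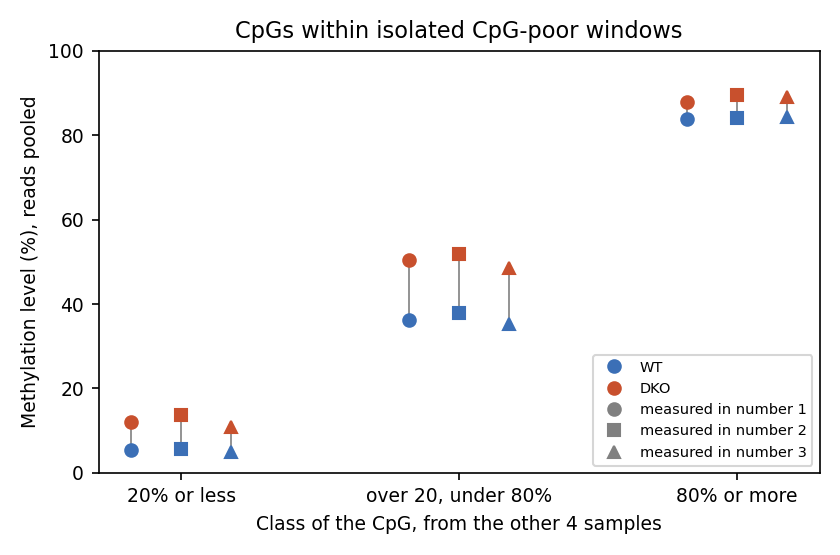
Methylation level in percent of CpGs inside the members, by class from the other 4 samples, with a blue WT point and a red DKO point joined by a line for each replicate number they were measured in. All red points sit above the blue ones, by 13.3 to 14.2 points in the middle class and by 4.24 to 8.07 points in the outer classes.

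The largest gain among called members was on chromosome 4 at 138796001 to 138797000 (mm9, 10 CpGs, 27 to 77 reads per sample). Its levels were 18.5%, 26.4% and 14.8% in WT and 72.7%, 72.2% and 82.8% in DKO (difference 56.0 points, adjusted p = 0.00212, moderated quasi-binomial F test). The DKO mean here was 75.9%, below its neighbours at 82.1%. The rise ran across the window. At the CpG at 138796329, 2 of 18 WT reads and 8 of 8 DKO reads were methylated, with the samples of each group pooled. At 138796587 the counts were 1 of 8 and 16 of 16, and at 138796965 they were 2 of 12 and 12 of 21. With equal weight for every CpG the difference was 57.9 points.

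The member on chromosome 3 at 35646001 to 35647000 (8 CpGs, 24 to 65 reads) had the smallest adjusted p, 0.00095 by the same F test. Its levels were 12.3%, 12.5% and 11.8% in WT and 62.0%, 66.0% and 66.1% in DKO. The samples of each group lay close together, and DKO stayed below its neighbours at 91.7%. The gain differed between CpGs of this window. At 35646177 the pooled counts were 0 of 15 in WT and 4 of 15 in DKO, and at 35646225 they were 2 of 17 and 14 of 14.

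On chromosome 5, 24505001 to 24506000 had 29.7%, 18.5% and 13.3% in WT and 83.3%, 66.7% and 72.9% in DKO. On chromosome 8, 81874001 to 81875000 had 15.4%, 26.6% and 13.6% in WT and 71.0%, 76.9% and 66.7% in DKO. In both the lowest DKO sample stood at least 36.9 points above the highest WT sample. A second member on chromosome 8, 91215001 to 91216000, had 25.5%, 22.2% and 20.0% in WT and 79.0%, 72.2% and 52% in DKO. Its neighbours also differed, at 77.1% in WT and 90.1% in DKO.

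On chromosome 2, 26369001 to 26370000 had 25.8%, 7.14% and 17.4% in WT and 50%, 67.3% and 70.8% in DKO. The neighbours of this member differed too, at 69.7% in WT and 86.8% in DKO. Its CpGs had unlike values. At 26369034, 0 of 15 WT reads and 0 of 14 DKO reads were methylated, while at 26369628 the counts were 0 of 14 and 20 of 21. On chromosome 16, 24701001 to 24702000 had 14.3%, 10.0% and 25.7% in WT and 57.9%, 75% and 53.1% in DKO. The neighbours of this member were lower in DKO, at 98.4% in WT and 94.3% in DKO. With equal CpG weights its difference was 33.9 points in place of 45.3 points.

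The second member on chromosome 4, 43300001 to 43301000, had 14.3%, 24.1% and 27.3% in WT and 58.2%, 71.7% and 70.8% in DKO. Much of this difference went with the spread of reads over CpGs. At 43300836 WT had 5 of 5 methylated reads and DKO had 21 of 23, so a methylated CpG weighed more in DKO. With equal weights the difference was 20.6 points in place of 45.0. Of the 8 windows, 3, 3 and 2 were still called when WT replicate 1, 2 or 3 was left out, and 1, 0 and 3 when DKO replicate 1, 2 or 3 was. Limma on log2 ratios called 0 of them (adjusted p from 0.375 to 0.42), and so did the fit with a replicate block (adjusted p = 0.618).

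In some deeply read members the groups lay close together in the level from all reads of the window. The member with the smallest difference among those with at least 60 reads in every sample was on chromosome 10 at 11511001 to 11512000, with 40.2%, 35.9% and 37.2% in WT and 40.1%, 33.9% and 40% in DKO. It had 621 to 803 reads per sample, far above the median member. Its CpGs differed from each other far more than the groups did. Methylated reads were 4 of 755 WT reads and 4 of 898 DKO reads at 11511128, and 240 of 252 and 266 of 278 at 11511006. Another, on chromosome 10 at 8105001 to 8106000, had 38.5%, 33.0% and 25.3% in WT and 18.3%, 46.2% and 33.3% in DKO. There 204 WT and 227 DKO reads fell on the CpG at 8105309, of which 12 and 19 were methylated. With equal weight for every CpG the levels were 83.9% in WT and 62.7% in DKO, a difference of -21.2 points. The small difference thus depended on how reads fell on the CpGs. Some of its CpGs had few reads, such as 1 in WT and 3 in DKO at 8105750. On chromosome 7, 67015001 to 67016000 (65 to 121 reads) had 41.5%, 51.2% and 48.4% in WT and 51.4%, 40.5% and 45.9% in DKO. On chromosome 1, 90184001 to 90185000 (132 to 346 reads) had 43.2%, 55.3% and 49.1% in WT and 45.5%, 45.4% and 52% in DKO. With equal CpG weights the members on chromosomes 7 and 1 differed by 0.272 and -4.57 points, and that at 11511001 by 2.68 points. The members at 11511001 and on chromosome 1 had more than 3 times the median depth and fell out with the high-copy windows. The groups overlapped in all 4 members.

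**Figure D5:**
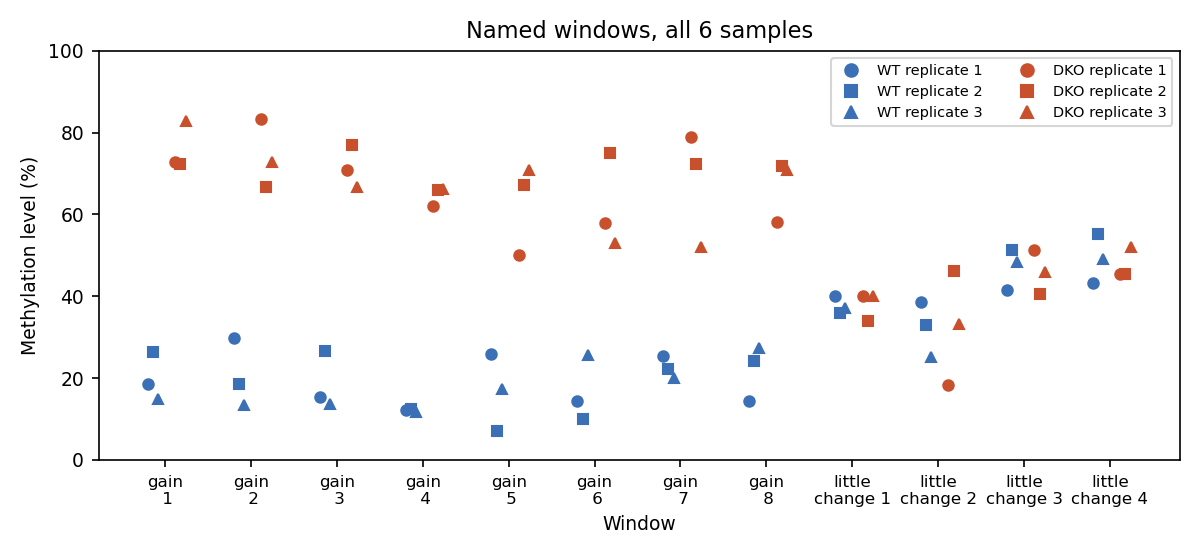
Methylation level in percent in all 6 samples (blue WT, red DKO) of the 8 called members with the largest gains, numbered by size, and of the 4 deep members with the smallest differences. The DKO points of the 8 gains lie at 50% to 83.3% above WT points at 7.14% to 29.7%, while the points of the other 4 mix.

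The gain was spread over the genome and over kinds of member. On all 19 autosomes the 3 DKO samples lay above the 3 WT samples, with differences from 7.65 points on chromosome 11 to 12.1 points on chromosome 19. Members made up 2.32 per 1000 tested windows on chromosome 17 and 4.10 per 1000 on chromosome 2. By CpG number the difference was 8.85 points at 3 to 7 CpGs, 9.24 at 8, 9.22 at 9 and 9.74 at 10, steps that are within the spread between DKO samples. By distance to CpG-dense unmethylated windows it was 9.35 points within 5 kb, 9.80 at 5 to 50 kb and 8.84 over 50 kb. Members near another member gained 10.1 points and the others 9.23.

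The gain was larger in members with more methylated neighbours, a class read from all 6 samples, and the differences between classes were not tested. Members whose neighbours averaged 90% or more had 31.8% in WT and 41.9% in DKO, a difference of 10.1 points (1172 members). Those at 80% to 90% differed by 8.74 points (1274 members) and those at 70% to 80% by 7.25 points (148 members). The dip was 13.8%, 9.32% and 4.65% shallower in DKO in these classes. By mean level, which the rule used, the difference was 7.16 points at 10% to 20%, 9.24 at 20% to 30%, 9.50 at 30% to 40% and 9.57 at 40% to 50%.

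Windows that missed a part of the rule gained as well. CpG-poor windows of the same level with a neighbour under 70% (set A, 2725 windows) had levels of 30.3% ± 0.332 (WT) and 38.1% ± 0.612 (DKO; SD, n = 3 each) and differed by 7.81 points. Windows with 11 or more CpGs between methylated neighbours (set B, 8448 windows) had 30.8% ± 0.343 and 39.6% ± 0.794 (SD, n = 3), a difference of 8.76 points. CpG-poor windows at 70% or more between such neighbours (set C, 227631 windows) had 90.5% ± 0.140 and 91.2% ± 0.493 (SD, n = 3), a difference of 0.628 points. Set C differs from the members in level, and the part of that in its smaller difference was not tested.

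Taken within each sample, the members stood above set A by 1.77, 1.66 and 2.15 points in WT and by 3.13, 3.67 and 3.17 points in DKO, so the gain of the members was larger by 1.46 points. Against set B the offsets were 1.19, 1.16 and 1.64 points in WT and 1.78, 1.95 and 1.81 points in DKO, larger by 0.517 points. Neither offset overlapped between the groups, and no p-value is given for them. The share called higher was 1.69% in set A and 5.47% in set B, against 2.20% of the members.

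The values just inside and just outside each limit of the rule were as follows. Means of 48% to 50% came with levels of 44.4% (WT) and 53.7% (DKO), and means of 50% to 52% with 45.8% and 56.3%. At 10% to 12% the levels were 8.17% and 13.8% (25 windows), and at 8% to 10% they were 5.94% and 12.4% (23 windows). Where the lower neighbour was at 70% to 72% the levels were 31.7% and 40.4%, and at 68% to 70% they were 32.6% and 40.9%. Windows with 10 CpGs had 32.1% and 41.9%, and those with 11 had 32.9% and 42.2%. With 20 or 21 reads in the shallowest sample the levels were 32.6% and 42.7%, and with 18 or 19 they were 32.7% and 42.0%.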

How the data were processed

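Methylated and total read counts per CpG were deposited by the authors in 1 table for 3 WT and 3 DKO samples, neither normalised nor pooled. The submitters' processing notes name BSMAP 2.74 and build mm9; for read filters and duplicate removal, the steps are not given in the sources at hand. The table listed 20451903 CpGs, with 0 columns of other samples. Reads were summed over 1 kb windows, and a level is methylated over all reads. Means over members weight windows equally. Each window got a quasi-binomial logistic fit of DKO against WT, with the Pearson dispersion moderated over all 774732 windows as in limma's squeezeVar and a floor of 1. The F test was adjusted by Benjamini-Hochberg over all windows. A run on simulated data used the same dispersion setting for every window, and its outcome is not used here. The prior had 23.7 degrees of freedom, so it outweighed the spread within a window. Labels call samples biological replicates; p-values measure the spread between them. Named windows were the 8 called members with the largest gain among those with separated samples, called lower members (0) and the 4 of at least 60 reads with the smallest difference. The members, sets and tests were chosen with earlier results of these data known. Per the labels' protocols, DNA was sheared, ligated to adapters, bisulfite-treated and amplified. Python 3.11.15, numpy 2.4.6, scipy 1.17.1 and limma 3.58.1 were used.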

Additional observations from a re-analysis of the deposited data

How the results depend on the processing

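The direction of the difference held under every alternative run, while the count of called members did not. Against 57, leaving out 1 sample gave 0 to 7 calls (0.00374% to 0.101% of all windows called higher, against 0.49%), minima of 10 and 40 reads gave 4 and 0 (from 5631 and 167 members, with 0.0221% and 0.112% of all windows; 1139 and 44 members higher unadjusted), and a mean level of 20% to 40% gave 26 of 1161 members. Without high-copy windows there were 139 calls (1.14% of all windows), with Fisher's exact test on pooled reads 663 (5.56%), with limma on log2 ratios 0 (0 of all windows) and with the dispersion from the deviance, chosen after seeing the data, 25 (0.28%). A fit with the replicate block called 0 of all windows and so 0 members (551 members higher, 21.2% against 6.17% of all windows, and 25 lower, 0.964% against 1.87%, unadjusted). Deviations of same-numbered samples correlated at 0.00332 to 0.00359, under 0.1, so the numbers were not taken to pair the samples; each sample correlated best with its own number. The grid shifted by 500 bp gave 59 calls (0.463% of all windows), but only 19.9% of the members overlapped a member of that grid. The mean difference of 9.28 points ranged from 8.65 to 10.3 over 24 alternatives. The 8.65 is the difference of the members less that of set C, so it is another quantity. The next lowest value was 8.73, with windows chosen on number 2 of both groups. The difference was 10.2 and 10.3 with windows chosen on WT replicates 1 and 3 alone. Leaving out 1 sample gave 8.81 to 9.68 points. The filling of the dip was 10.4% to 12.5% with 1 sample left out, 14.3% with windows chosen on number 3 of both groups, and 18.4%, 17.4% and 18.8% with windows chosen on single WT samples. The excess of DKO members at 70% or more was 2.33 points, 8.52 at a limit of 60%, 0.398 at 80% and 4.95 with reads thinned. It was 13.4, 12.2 and 13.6 points with windows chosen on WT replicates 1, 2 and 3, also chosen after seeing the data. The causes were not tested. Only 18.7% of autosomal windows with 3 to 10 CpGs had the required reads, and 267 members had a neighbour with under 60 reads in all samples; without these the difference was 9.35 points.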
